A study of Mus musculus with 18 samples.

Results

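Streptozotocin (STZ) was compared with no STZ in mouse spleen, across animals with and without alginate oligosaccharide (AOS). The libraries were chosen by their labels, with earlier results of these data known. They were the 12 of 18 libraries in the series that came from animals without a fecal transplant, 6 with STZ and 6 without. All were spleens of ICR mice aged 10 weeks, and the study used males. Con animals were controls. A10 animals received AOS, a short sugar chain made from alginate of brown algae, at 10 mg/kg. STZ animals received STZ, and STZ-A10 animals received both. Each group held 3 libraries, and nothing says that animals were pooled. Per the study's methods, STZ was a single injection at the start of the experiment, weeks before the spleens were taken, so early and late effects of the drug cannot be told apart. When and for how long the A10 and STZ-A10 animals received AOS is not given in the sources used here. The other 6 libraries, Con-FMT and A10-FMT, came from animals given STZ and a fecal microbiota transplant (FMT). They are named only where a level in them is set beside these 12.

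STZ is a glucose-like nitrosourea. It enters the insulin-producing beta cells of the pancreas through their glucose transporter and kills them, which models type 1 diabetes. Loss of insulin shifts tissues from glucose to fatty acids as fuel and is known to raise circulating glucocorticoids in rodents. Glucocorticoids bind the glucocorticoid receptor, which switches on a set of genes in many tissues and is known to shrink lymphoid organs. The spleen filters blood. Its red pulp holds macrophages that take up old erythrocytes and recycle their iron, and in mice it also makes erythrocytes and platelets. Its white pulp holds T and B lymphocytes.

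The values were RPKM, reads scaled to gene length and to the mapped reads of the library, so the read depth of a library is unknown. Between 12066 and 12893 genes reached 1 RPKM in a library. The spleen label was checked against B cell, macrophage and MHC genes. Cd79a, part of the B cell receptor, ran from 507.6 to 971 RPKM over the 12 libraries, Cd74 from 2873 to 5104 and the macrophage gene Hmox1 from 168 to 335. Hemoglobin transcripts took 10.4% to 36.2% of all RPKM in single libraries. They averaged 26.2% ± 11.3 (SD, n = 6) with STZ and 24.9% ± 5.80 (SD, n = 6) without, a difference inside the spread between libraries (two-sided exact permutation test within AOS strata, p = 0.83, where 0.005 is the smallest p the design allows). Transcripts typical of other organs were present and moved with STZ, as the plot of summed levels by library shows. The exocrine pancreas genes summed to 1998, 4016 and 9008 RPKM in STZ and to 8721, 9498 and 13850 in STZ-A10. They summed to 57.9, 498 and 2924 in Con and to 97.4, 724 and 1154 in A10. The sums did not overlap between A10 and STZ-A10, but Con replicate 1 lay above the lowest STZ library. The liver genes ran the other way, from 202 to 335 RPKM with STZ and from 279.7 to 1473 without, where the ranges overlapped through Con replicate 1 and STZ-A10 replicate 1. None of the 20 endocrine pancreas genes reached the filter, and their sum was 0.50 to 1.18 RPKM.

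**Figure D1:**
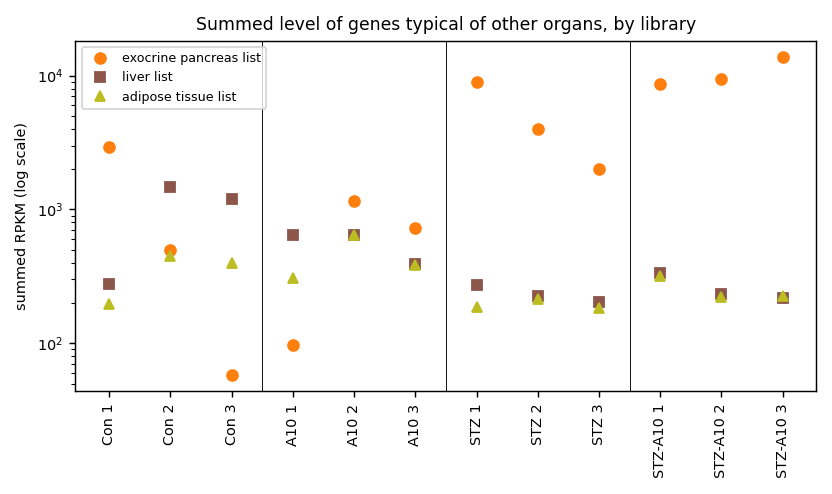
Summed RPKM (log scale) of the genes typical of exocrine pancreas, liver and adipose tissue in each of the 12 libraries, ordered by group, with vertical lines between groups. The exocrine pancreas sum was at least 1998 RPKM in every STZ and STZ-A10 library and at most 2924 without STZ, and the liver sum was at most 335 with STZ.

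Of 12773 genes tested, 523 passed an adjusted p of 0.05 for STZ with AOS as a covariate (limma, Benjamini-Hochberg). With STZ, 218 were higher (1.71% of genes tested) and 305 were lower (2.39%). Without adjustment, 2582 genes had p under 0.05, where 639 would pass by chance. The differences were mostly moderate. The median log2 difference was 0.71 among the higher genes and -0.57 among the lower genes, and 116 of the 523 changed by at least 1 on the log2 scale. Over all genes the median log2 difference was -0.02. Of the called genes, 36 of the higher and 29 of the lower are on the lists of other organs, which leaves 182 and 276. The number of calls depended on single libraries. It fell to 208 without Con replicate 2, to 265, 225 and 225 without A10 replicates 1, 2 and 3, to 230 without STZ replicate 2, and to 307 and 226 without STZ-A10 replicates 2 and 3. The split also moved. Higher and lower calls numbered 108 and 100 without Con replicate 2, 114 and 111 without A10 replicate 2, 120 and 106 without STZ-A10 replicate 3, and 230 and 538 without STZ replicate 1. Con replicate 2 held 473 RPKM of testis germ cell genes, against 44.0 to 103 in the other 11 libraries.

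The STZ difference was similar in direction in both AOS arms. STZ against Con and STZ-A10 against A10 share no library. Over the 12773 genes, their log2 differences correlated with a Pearson r of 0.69, and 8613 genes (67.4%) had the same sign in both. With the genes of other organs left out, r was 0.55 over 12615 genes. These are descriptions across genes, which are not independent replicates. On its own, the arm without AOS gave 37 calls (0.29%) and the arm with AOS gave 20 (0.157%), of which 10 were called in both. These small counts rested on single libraries. The first was 0 without Con replicate 2, 9 without STZ replicate 2, 131 without Con replicate 1 and 142 without STZ replicate 3, and the second was 0 without A10 replicate 1 or 3 or STZ-A10 replicate 2 and 2 without STZ-A10 replicate 3. All 37 genes called without AOS had the same sign with AOS, and 32 of them had an unadjusted p under 0.05 there. All 20 genes called with AOS had the same sign without AOS, and 19 had an unadjusted p under 0.05 there. The test of whether the STZ difference itself depended on AOS gave 0 calls (0%, limma interaction term), with 394 genes at an unadjusted p under 0.05.

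**Figure D2:**
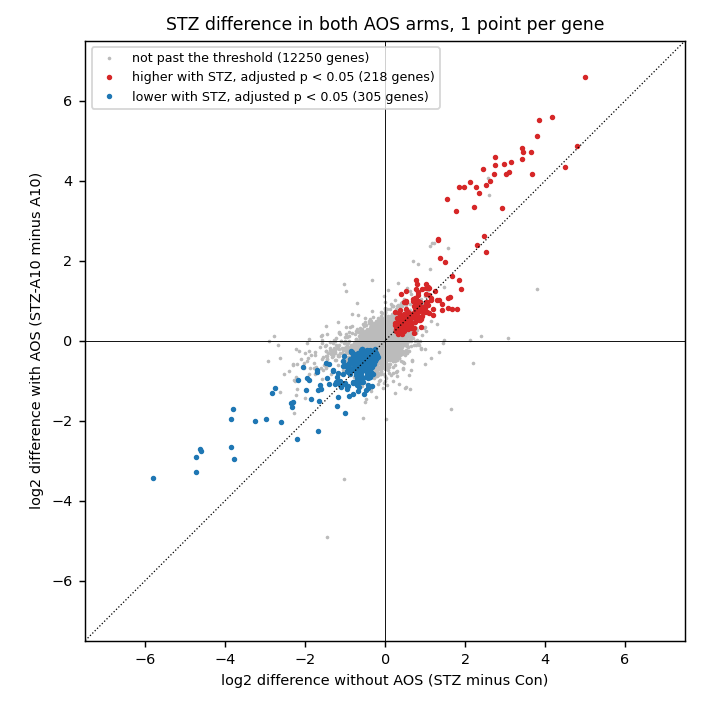
Each point is a gene, with its log2 difference between STZ and Con on the horizontal axis and between STZ-A10 and A10 on the vertical axis, and the dotted line marks equal differences. The 218 genes called higher are red and the 305 called lower are blue, and r was 0.69 over all 12773 genes. The calls were made on both arms together, which favors genes with the same sign in both.

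Glucocorticoid-induced genes were the list with the most members called higher outside the lists of other organs. Of 43 tested, 21 rose (48.8%, against 1.71% of all genes) and 1 fell (2.33%, against 2.39%). The median log2 difference was 0.54. It was 0.44 without AOS and 0.62 with AOS, and 36 of the 43 were higher in both arms.

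Pdk4 (chromosome 6, 5483351 to 5496309, minus strand) had the largest difference on this list. It encodes pyruvate dehydrogenase kinase, which blocks the entry of pyruvate into the citric acid cycle. Pdk4 was at 1.71, 2.88 and 2.65 RPKM in Con, 2.67, 2.97 and 2.86 in A10, 10.1, 13.9 and 4.13 in STZ, and 14.7, 12.1 and 15.3 in STZ-A10. Every STZ library lay above every library without STZ, with STZ replicate 3 the lowest of the 6. It differed by a log2 value of 1.73 (SE 0.22, adjusted p = 0.00181).

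Errfi1 (chromosome 4, 150853919 to 150868892, plus strand) encodes a feedback inhibitor of the EGF receptor. It was at 5.01, 8.77 and 12.3 RPKM in Con, 7.05, 8.84 and 8.11 in A10, 19.7, 27.2 and 61.7 in STZ, and 29.8, 18.5 and 27.2 in STZ-A10. The sets did not overlap, and STZ replicate 3, low for Pdk4, was the highest here. On the log2 scale the difference was 1.68 (SE 0.26, adjusted p = 0.00502).

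Per1, a repressor of the circadian clock, had a median of 15.6 RPKM with STZ (12.2 to 20.2) and 7.79 without (5.42 to 9.14). Its log2 difference was 1.00 (SE 0.13, adjusted p = 0.00244). Cdkn1a, the cell cycle inhibitor p21, had a median of 16.3 RPKM with STZ (12.2 to 20) and 8.11 without (7.12 to 9.03), a log2 difference of 0.89 (SE 0.11, adjusted p = 0.00162). Cdkn1a is also a p53 target. Of 43 p53 targets tested, 2 rose, Cdkn1a and Sesn1 (4.65%, against 1.71% of all genes). Both are on the glucocorticoid list too. The median of the p53 list was 0.03.

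Fkbp5, a co-chaperone that dampens the glucocorticoid receptor, was named after its values were seen. It was at 8.82, 9.93 and 9.56 RPKM in Con, 11.9, 10.6 and 11.6 in A10, 23.7, 31.9 and 12.8 in STZ, and 39.8, 18.3 and 24.8 in STZ-A10. No STZ library lay below any library without STZ. The log2 difference was 1.12 (SE 0.20, adjusted p = 0.0116). Klf9, a transcription factor induced by glucocorticoids and likewise chosen after its values were seen, had a log2 difference of 0.91 (SE 0.17, adjusted p = 0.0137).

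Members of the list that did not pass include Sgk1, a kinase that acts on ion channels, with a log2 difference of 0.30 (adjusted p = 0.29). The member that fell was Bcl6, the master regulator of germinal center B cells, with a log2 difference of -0.51 (SE 0.090, adjusted p = 0.0108). Lcn2, which is also a neutrophil gene, and Anxa1 were lower still, at -1.20 and -0.87, and did not pass (adjusted p = 0.332 and 0.226). Leaving out single libraries gave 15 to 24 called members. Time of day at collection is not given in the sources used here, and its part in the clock genes was not tested. Of 22 clock genes, 3 rose (13.6%, against 1.71% of all genes), Per1, Cry2 and Nr1d1, and the list's median was 0.11. Cry2 and Nr1d1 both lost their calls without Con replicate 2, A10 replicate 3, STZ replicate 2 or STZ-A10 replicate 2, Cry2 also without A10 replicate 1 or 2 or STZ-A10 replicate 3, and Nr1d1 also without Con replicate 3, with adjusted p up to 0.0712 and 0.0783.

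**Figure D3:**
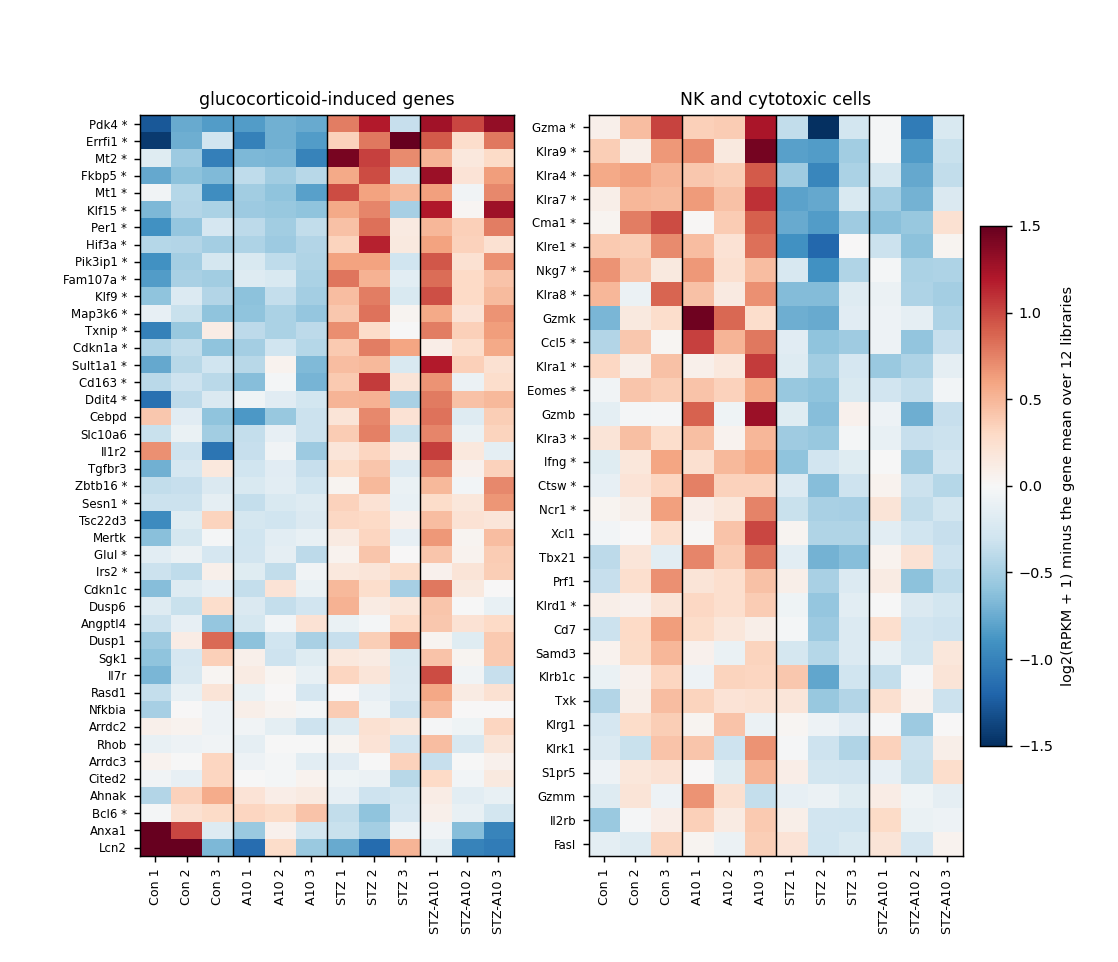
Each row is a gene and each column a library, colored by log2(RPKM + 1) minus the gene's mean over the 12 libraries, for 43 glucocorticoid-induced genes (left) and 31 NK and cytotoxic genes (right), with a star at an adjusted p under 0.05. On the left 22 genes carry a star, 21 of them higher with STZ, and on the right 16 do, each of them lower.

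The metallothioneins Mt2 and Mt1 bind zinc and copper and respond both to metals and to glucocorticoids. They lie next to each other on chromosome 8 (Mt2 at 94172664 to 94173568, Mt1 at 94179082 to 94180327, both on the plus strand). Mt2 was at 104, 80.6 and 57.4 RPKM in Con, 73.8, 72.8 and 58.5 in A10, 318, 239.9 and 193 in STZ, and 169, 131 and 144 in STZ-A10. The sets did not overlap, and the 3 STZ libraries were the highest. It differed by a log2 value of 1.37 (SE 0.17, adjusted p = 0.00177). Mt1 had a median of 229.6 RPKM with STZ and 102 without, with a log2 difference of 1.11 (SE 0.16, adjusted p = 0.0042). The sets overlapped by a little, since the highest library without STZ, at 145.5 RPKM, lay above the lowest with STZ, at 145.02.

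The 250 bases before the start of each gene were searched on both strands for a glucocorticoid response element, spelled GNACA and TGTNC with 3 bases between. This element was in 127 of 32851 such windows (0.387%), and in 7 of the 55 windows (12.7%) that belong to 39 genes of the glucocorticoid list. The list was written from genes known to respond to the hormone, so it is no independent sample. The windows belong to Txnip, Map3k6, Slc10a6, Mt1, Sgk1 and Fam107a, the last with 2 starts. Of these genes, 4 rose and 2 did not pass, Slc10a6 (log2 difference 0.59, adjusted p = 0.0876) and Sgk1. Windows of the 4 genes that rose are shown with the element in capitals, 5′ to 3′ on the gene's own strand, from RefSeq on GRCm38.p6.
Txnip, chr3:96557707-96557956, plus strand: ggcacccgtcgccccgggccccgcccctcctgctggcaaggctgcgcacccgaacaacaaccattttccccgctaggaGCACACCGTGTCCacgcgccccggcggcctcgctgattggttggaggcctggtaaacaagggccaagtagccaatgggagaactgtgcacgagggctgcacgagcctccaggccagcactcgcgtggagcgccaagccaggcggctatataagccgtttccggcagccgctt
Map3k6, chr4:133240568-133240817, plus strand: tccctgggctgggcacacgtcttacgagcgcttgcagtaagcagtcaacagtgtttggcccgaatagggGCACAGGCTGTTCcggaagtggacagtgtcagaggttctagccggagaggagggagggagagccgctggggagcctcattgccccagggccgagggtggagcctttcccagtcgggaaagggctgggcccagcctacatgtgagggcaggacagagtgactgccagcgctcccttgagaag
Mt1, chr8:94178839-94179088, plus strand: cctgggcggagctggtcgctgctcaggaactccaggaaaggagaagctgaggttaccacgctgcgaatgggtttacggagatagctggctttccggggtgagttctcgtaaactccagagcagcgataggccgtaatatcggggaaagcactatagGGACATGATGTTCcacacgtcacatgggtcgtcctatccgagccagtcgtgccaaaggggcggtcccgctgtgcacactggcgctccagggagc
Fam107a, chr14:8309780-8310029, minus strand: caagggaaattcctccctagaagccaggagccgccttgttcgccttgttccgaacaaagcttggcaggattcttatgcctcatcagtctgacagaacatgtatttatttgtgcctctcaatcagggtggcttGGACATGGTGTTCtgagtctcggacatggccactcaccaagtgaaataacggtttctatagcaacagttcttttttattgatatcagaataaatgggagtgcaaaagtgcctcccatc

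Txnip encodes an inhibitor of glucose uptake and of thioredoxin. It had a median of 294 RPKM with STZ (206 to 355) and 154 without (103 to 225), with a log2 difference of 0.90 (SE 0.17, adjusted p = 0.0145). Con replicate 3, at 225 RPKM, lay above STZ replicate 3, at 206. Map3k6 (log2 difference 0.90, adjusted p = 0.00624) and Fam107a (0.91, adjusted p = 0.0108) were low genes, with means of 2.63 and 2.21 RPKM with STZ and 0.920 and 0.677 without. Both were named by the motif search, after their values were known.

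The metal response element, searched as TGCNCNC, was in 44.4% of all windows at least once. Mt2 held 5 copies, at 223, 178, 128, 113 and 50 bases before its RefSeq start, which do not overlap. At least 5 copies were found in 113 windows (0.344%). The neighbor Mt1, which also rose, held 1 copy in its window. The RefSeq starts of both genes differ from the gene positions given above. The copy numbers hold for these windows only, and sequence outside them was not searched. Of the 26 windows of the metallothionein and acute phase list, 42.3% held at least 1 copy, no more than the 44.4% of all windows. The Mt2 window is shown because this gene had the larger difference of the pair, with the copies in capitals. A match describes the letters only, and no binding was measured.
Mt2, chr8:94172368-94172617, plus strand: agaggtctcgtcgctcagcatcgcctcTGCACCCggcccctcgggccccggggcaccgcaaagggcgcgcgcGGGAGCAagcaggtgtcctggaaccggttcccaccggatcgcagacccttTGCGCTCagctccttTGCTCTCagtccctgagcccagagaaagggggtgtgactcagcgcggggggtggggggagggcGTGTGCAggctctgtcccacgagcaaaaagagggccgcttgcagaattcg

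Genes of fatty acid use rose beside Pdk4. Of 35 fatty acid oxidation genes tested, 5 rose (14.3%, against 1.71% of all genes) and 1 fell (2.86%, against 2.39%). The median was 0.06. Acot1 (chromosome 12, 84009490 to 84018371, plus strand) encodes an enzyme that splits long-chain acyl-CoA. It was at 1.39, 1.77 and 1.81 RPKM in Con, 1.38, 1.82 and 1.75 in A10, 5.67, 4.08 and 4.27 in STZ, and 4.53, 6.68 and 5.72 in STZ-A10. Every library with STZ, the lowest at 4.08, lay above the highest without, at 1.82. On the log2 scale the difference was 1.20 (SE 0.11, adjusted p = 0.000277). The gene that fell was Fabp4, a fatty acid binding protein of adipocytes and macrophages that is also on the adipose list. Its call was lost without Con replicate 2 or 3, A10 replicate 2 or 3, STZ replicate 2 or 3 or STZ-A10 replicate 2 or 3, with adjusted p up to 0.0828.

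Of 45 genes of glycolysis and glucose handling, 4 rose (8.89%, against 1.71% of all genes) and 1 fell (2.22%, against 2.39%). The median was -0.11. Those that rose were Pdk4, Txnip, its relative Arrdc4 and the insulin receptor substrate Irs2. Apart from Arrdc4, these are also glucocorticoid genes. Arrdc4 and Irs2 both lost their calls without Con replicate 2, A10 replicate 1, 2 or 3 or STZ-A10 replicate 3, with adjusted p up to 0.0764 and 0.0914, and Irs2 also without STZ replicate 2 or 3 or STZ-A10 replicate 2. Hexokinase 2 (Hk2), the entry enzyme of glycolysis, fell. Of 36 genes of cholesterol and fatty acid synthesis, 5 fell (13.9%, against 2.39% of all genes) and 0 rose, and the median was -0.14. Cyp51, which demethylates lanosterol, ran from 8.04 to 11.2 RPKM without STZ and from 5.95 to 7.25 with STZ (log2 difference -0.49, SE 0.083, adjusted p = 0.00927). Without single libraries, 2 to 8 of the list were called, 2 without Con replicate 2, 8 without STZ replicate 1 and 3 without each of A10 replicates 1, 2 and 3, STZ replicate 2 and STZ-A10 replicates 2 and 3.

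Genes of natural killer (NK) and cytotoxic cells moved the other way. NK cells kill stressed cells with granzymes and carry the Klra (Ly49) receptors for MHC class I. Of 31 genes tested, all 31 were lower with STZ in the fit and in both arms, 16 fell (51.6%, against 2.39% of all genes), and the median log2 difference was -0.62. It was -0.46 without AOS and -0.68 with AOS. Cma1, 1 of the 16, is also on the list of eosinophils and mast cells. Its call was lost without Con replicate 2, A10 replicate 3, STZ replicate 2 or STZ-A10 replicate 2, with adjusted p up to 0.0613. In bulk spleen, fewer cells of a type and less RNA per cell cannot be told apart.

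Klra4 had the smallest p of the list. It was at 4.08, 4.23 and 3.87 RPKM in Con, 3.51, 3.43 and 5.45 in A10, 1.37, 0.74 and 1.46 in STZ, and 1.85, 1.01 and 1.64 in STZ-A10. No library overlapped between the sets. The log2 difference was -1.13 (SE 0.13, adjusted p = 0.00148). Klra7 and Klra9, at -1.08 and -1.13 (adjusted p = 0.00308 and 0.0116), also fell without overlap. The Klra genes are near-identical neighbors on chromosome 6, so reads may be split between them, and they count as less than independent evidence.

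Genes outside this family fell as well. Nkg7 (chromosome 7, 43437073 to 43438249, plus strand), a protein of cytotoxic granules, was at 54.8, 45.7 and 37.8 RPKM in Con, 54.0, 40.5 and 47.3 in A10, 28.6, 17.7 and 24.7 in STZ, and 33.4, 24.2 and 24.6 in STZ-A10. The sets did not overlap. It differed by a log2 value of -0.86 (SE 0.14, adjusted p = 0.00625). Eomes, the transcription factor of mature NK cells, had a log2 difference of -0.69 (SE 0.11, adjusted p = 0.00624). Its medians were 1.78 RPKM with STZ and 3.55 without. Gzma, granzyme A, had a median of 20.4 RPKM with STZ (8.12 to 25.1) and 34.8 without (27.2 to 61.4), a log2 difference of -1.17 (SE 0.26, adjusted p = 0.0305). Its call was lost without Con replicate 2 or 3, A10 replicate 2 or 3, STZ replicate 2 or STZ-A10 replicate 2 or 3, with adjusted p up to 0.0712. Perforin (Prf1) and granzyme B (Gzmb), named after their values were seen, did not pass, at -0.49 and -0.64 (adjusted p = 0.141 and 0.154). The number of called members was 8 without Con replicate 2, 10 without A10 replicate 2, and 9 without each of A10 replicate 3, STZ replicate 2 and STZ-A10 replicates 2 and 3.

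Of 38 T cell genes tested, 34 were lower and 4 fell, Cd3d, Cd3g, Cd28 and Thy1 (10.5%, against 2.39% of all genes), and the median was -0.36. Cd3g, a chain of the T cell receptor complex, had a median of 42.6 RPKM with STZ (39.5 to 63.7) and 85.9 without (48.7 to 95.5). The sets overlapped, and the log2 difference was -0.75 (SE 0.16, adjusted p = 0.0277). The count rested on single libraries. It was 18 without Con replicate 1, 8 without STZ replicate 1, 7 without STZ-A10 replicate 1, 2 without Con replicate 3 or A10 replicate 3, and 0 without Con replicate 2, A10 replicate 1 or 2, STZ replicate 2 or STZ-A10 replicate 2 or 3. With all 18 libraries in the fit it was also 0.

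Of 29 B cell genes, 25 were lower and 2 fell, Fcer2a and Vpreb3 (6.90%, against 2.39% of all genes), with a median of -0.22. Vpreb3, a chaperone of the B cell receptor, lost its call without any single library other than STZ replicate 1 or STZ-A10 replicate 1, with adjusted p up to 0.339. Cd79a itself had a log2 difference of -0.15 (adjusted p = 0.722). Fcer2a, the low-affinity IgE receptor CD23 of follicular B cells, was at 79.1, 91.9 and 142 RPKM in Con, 90, 117 and 99.2 in A10, 71.7, 27.3 and 42.9 in STZ, and 50.3, 51.9 and 42.9 in STZ-A10. The highest STZ library, STZ replicate 1, lay under the lowest library without STZ. On the log2 scale the difference was -1.12 (SE 0.20, adjusted p = 0.0116). Nuggc, a GTPase of germinal center B cells that is not on the list, had a median of 1.15 RPKM with STZ (0.88 to 3.20) and 6.78 without (1.88 to 9.16). Con replicate 3 was the lowest library without STZ and lay within the range of the STZ libraries. The log2 difference was -1.42 (SE 0.23, adjusted p = 0.00641).

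Of 25 dendritic cell genes, 10 were higher and 15 were lower, with a median of -0.02. Of these genes 2 fell, Fcer2a and Siglech, where 2.39% of all genes fell. Fcer2a is also on the B cell list, and Siglech is a lectin of plasmacytoid dendritic cells. Ccr9, Bst2 and Irf8 of the dendritic cell list were lower and Ly6d was higher, and none of them passed. Siglech had a median of 5.44 RPKM with STZ and 10.9 without, a log2 difference of -1.03 (SE 0.18, adjusted p = 0.01). Of 23 plasma cell genes, 22 were lower and 2 fell, the chaperones Hsp90b1 and Sdf2l1 (8.70%, against 2.39% of all genes), with a median of -0.40. Both calls were lost without Con replicate 2, A10 replicate 1 or 3, STZ replicate 2 or STZ-A10 replicate 2 or 3, with adjusted p up to 0.0795 and 0.0959. Of 24 monocyte genes 2 fell, Fabp4 and Ms4a4c (8.33%, against 2.39% of all genes), with a median of 0.01. Fabp4 is also on the adipose list, and its call was fragile, as given above. Ms4a4c lost its call without any library other than Con replicate 1, A10 replicate 2 or STZ replicate 1, with adjusted p up to 0.110. MHC class II genes gave 0 calls among 13 (median -0.10).

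**Figure D4:**
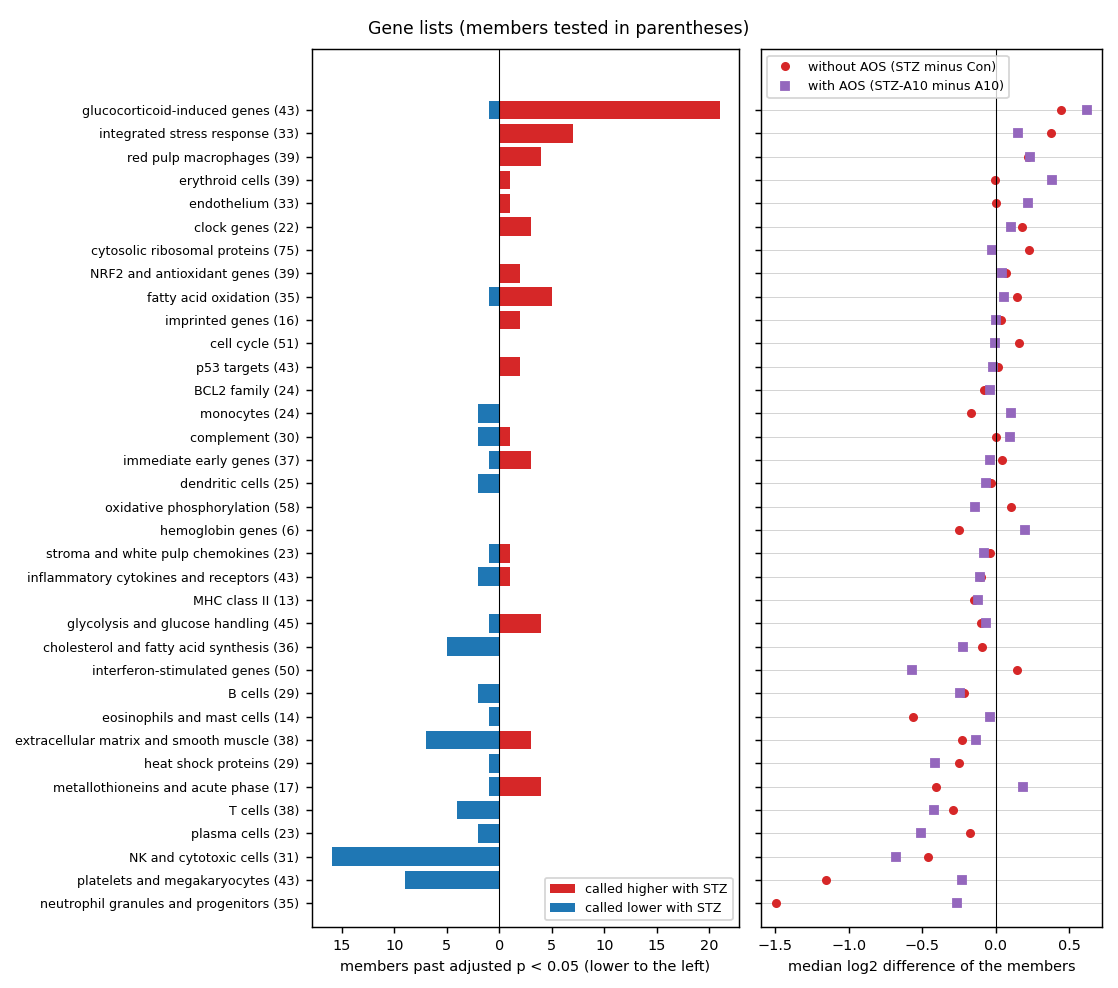
For each gene list (members tested in parentheses, ordered by the median of the STZ difference), the left panel counts members called higher (red) and lower (blue) at an adjusted p under 0.05, and the right panel gives the median log2 difference of the members in each AOS arm. The glucocorticoid list stands at the top with 21 genes higher and 1 lower, and the NK list has 16 lower and 0 higher.

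Of 43 platelet and megakaryocyte genes, 38 were lower and 9 fell (20.9%, against 2.39%), with a median of -0.67. The median was -1.15 without AOS and -0.23 with AOS. Ppbp, a chemokine precursor stored in platelets, was at 754, 416 and 341 RPKM in Con, 327, 506 and 293 in A10, 86.8, 82.6 and 281 in STZ, and 137, 271 and 165 in STZ-A10. The sets did not overlap, with STZ replicate 3 just under A10 replicate 3. It differed by a log2 value of -1.45 (SE 0.34, adjusted p = 0.0341). The collagen receptor Gp6 (-1.22, adjusted p = 0.0328), the serotonin transporter Slc6a4 (-1.36, adjusted p = 0.0391) and Ly6g6f (-1.43, adjusted p = 0.0495), a platelet surface protein outside the list, were also called. These 4 calls are fragile. They were kept in 17, 17, 15 and 6 of 27 alternatives, in the order given. The number of called platelet genes was 0 without Con replicate 2 or STZ-A10 replicate 3, 1 without A10 replicate 2, 2 without A10 replicate 1, 3 without STZ replicate 2, 4 without A10 replicate 3 and 5 without Con replicate 3. It was also 2 with hemoglobin genes taken out before scaling and 4 with no filter.

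Neutrophil genes gave 0 calls among 35, although their median was -0.80 (-1.49 without AOS, -0.26 with AOS). S100a8, a calcium-binding protein abundant in neutrophils, was at 5154, 1315 and 276 RPKM in Con and at 128 to 567 in the other 9 libraries. Con replicates 1 and 2 thus stood apart. Its log2 difference was -1.45 (SE 0.63, adjusted p = 0.217). With single libraries left out the list had at most 1 call, and with array weights it had 5.

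Of 39 erythroid genes tested, 36 were higher and 1 rose (2.56%, against 1.71% of all genes), with a median of 0.19 that stayed above 0 in all 27 alternatives, and the median was -0.01 without AOS and 0.38 with AOS. The gene that rose was Car1 (chromosome 3, 14766216 to 14808368, minus strand), an erythroid carbonic anhydrase. It was at 288, 304 and 233 RPKM in Con, 289.9, 285 and 167 in A10, 734, 829 and 643 in STZ, and 422, 537 and 402 in STZ-A10. The sets did not overlap. On the log2 scale the difference was 1.16 (SE 0.16, adjusted p = 0.00308). Erfe (chromosome 1, 91366430 to 91374217, plus strand) encodes erythroferrone, a hormone that erythroblasts release to lower hepcidin and free iron. It was at 3.68, 1.93 and 0.98 RPKM in Con, 1.02, 0.81 and 0.73 in A10, 15.5, 25.7 and 10.7 in STZ, and 3.08, 12.03 and 11.1 in STZ-A10. Con replicate 1 lay above STZ-A10 replicate 1, and within each arm there was no overlap. The log2 difference was 2.37 (SE 0.30, adjusted p = 0.00205). The abundant erythroid genes Alas2 and Slc4a1 had log2 differences of 0.05 and 0.18 (adjusted p = 0.964 and 0.836).

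Of 39 red pulp macrophage genes, 31 were higher and 4 rose (10.3%, against 1.71%), with a median of 0.23 and nearly the same median in both arms (0.22 and 0.23). They were the integrin Itgad, the hemoglobin scavenger receptor Cd163, the adhesion molecule Vcam1 and the scavenger receptor Marco. Itgad had a median of 16.1 RPKM with STZ (12.98 to 20.5) and 10.0 without (8.48 to 12.8), without overlap, and a log2 difference of 0.64 (SE 0.12, adjusted p = 0.0139). Hmox1, which breaks down heme, had a log2 difference of 0.38 (adjusted p = 0.1). The number called was 1 without Con replicate 2, A10 replicate 1 or 3 or STZ-A10 replicate 3, 2 without A10 replicate 2 or STZ replicate 2, 7 without Con replicate 3 and 9 without STZ-A10 replicate 2. Retnla (chromosome 16, 48842551 to 48844461, plus strand), a secreted product of alternatively activated macrophages and of adipose tissue, had the largest fall of the named genes. It was at 4.79, 17.5 and 12.7 RPKM in Con, 11.03, 26.8 and 14.7 in A10, 1.40, 0.90 and 0.45 in STZ, and 2.78, 3.56 and 3.31 in STZ-A10. All 6 STZ libraries lay under all 6 without. It differed by a log2 value of -2.32 (SE 0.28, adjusted p = 0.00162). On the adipose list, 10 of 19 genes fell (52.6%, against 2.39% of all genes), with a median of -0.86. The number called was 5 without Con replicate 2, 4 without STZ-A10 replicate 3, and 6 without each of A10 replicates 2 and 3, STZ replicate 2 and STZ-A10 replicate 2, and it was 2 where 1 RPKM was required in all 12 libraries. The part of adipose tissue in Retnla was not tested.

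Of 38 matrix and smooth muscle genes, 7 fell (18.4%, against 2.39% of all genes) and 3 rose (7.89%, against 1.71%), with a median of -0.24. Col3a1, a fibrillar collagen (chromosome 1, 45311538 to 45349706, plus strand), was at 31.0, 38.7 and 32.5 RPKM in Con, 24.9, 38.1 and 31.9 in A10, 17.1, 12.4 and 15.8 in STZ, and 15.9, 17 and 12.6 in STZ-A10. The sets did not overlap. On the log2 scale the difference was -1.07 (SE 0.12, adjusted p = 0.0011). Col1a1 and the matricellular protein Postn fell by 0.63 and 0.93 on the log2 scale (adjusted p = 0.00414 and 0.0116). Col5a1, which regulates the thickness of collagen fibrils, rose, with a log2 difference of 0.50 (SE 0.071, adjusted p = 0.00393) and no overlap between the sets. The number called was 5 without Con replicate 2, A10 replicate 2 or STZ-A10 replicate 3 and 6 without A10 replicate 3, STZ replicate 2 or STZ-A10 replicate 2. Podxl, a sialomucin of endothelium, was the 1 gene called among 33 endothelial genes (3.03%, against 1.71% of all genes). Its median was 9.08 RPKM with STZ (4.84 to 14.6) and 3.11 without (2.27 to 3.79), a log2 difference of 1.23 (SE 0.18, adjusted p = 0.00399).

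**Figure D5:**
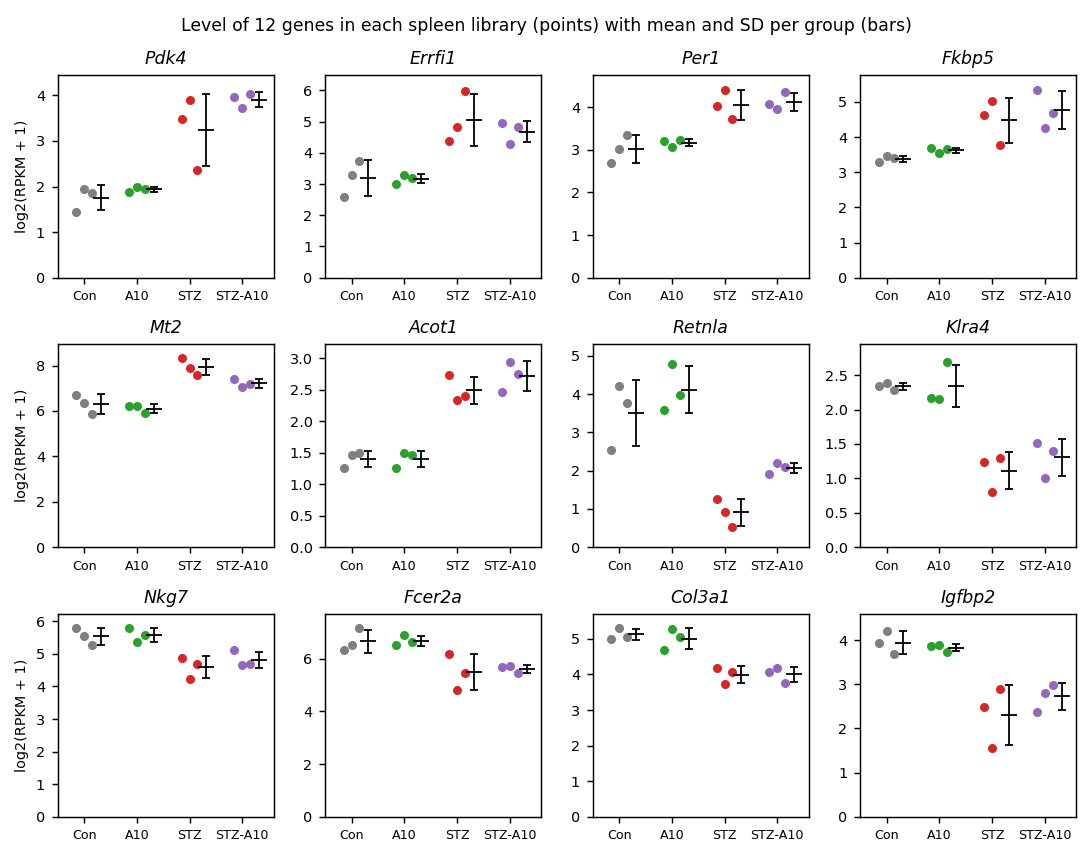
Level of 12 genes in log2(RPKM + 1), with a point for each of the 3 libraries of Con, A10, STZ and STZ-A10 and a bar for the group mean and SD. Pdk4, Errfi1, Per1, Fkbp5, Mt2 and Acot1 lie higher in both STZ groups, and Retnla, Klra4, Nkg7, Fcer2a, Col3a1 and Igfbp2 lie lower, without overlap between the 6 libraries with and the 6 without STZ.

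Of 33 genes of the integrated stress response, which cells use when amino acids run short or proteins misfold, 7 rose (21.2%, against 1.71%) and 0 fell, with a median of 0.24. Asns, asparagine synthetase, was at 54.9, 40.9 and 31.3 RPKM in Con, 30.3, 31.9 and 25.7 in A10, 86.9, 94.7 and 86.2 in STZ, and 35.2, 58.2 and 53.9 in STZ-A10. STZ-A10 replicate 1 lay under Con replicates 1 and 2, so the sets overlapped. The log2 difference was 0.90 (SE 0.15, adjusted p = 0.00927), and its call was lost in the fit without the AOS term (adjusted p = 0.0545). Nupr1, another gene of the 7, is also on the exocrine pancreas list. The median was 0.37 without AOS and 0.15 with AOS. The number called was 1 without A10 replicate 2 or STZ replicate 2, 2 without Con replicate 2 or STZ-A10 replicate 2, 3 without A10 replicate 3 or STZ-A10 replicate 3, and 4 without Con replicate 3 or A10 replicate 1. Ier3 (chromosome 17, 35821684 to 35822923, plus strand), a rapidly induced survival gene, had the smallest p of all genes tested. It was at 4.28, 4.46 and 4.54 RPKM in Con, 3.41, 4.30 and 3.32 in A10, 9.71, 15 and 11.6 in STZ, and 9.04, 10.7 and 10.1 in STZ-A10. It differed by a log2 value of 1.24 (SE 0.098, adjusted p = 0.000209). Of 37 immediate early genes, Ier3, Klf10 and Myc rose (8.11%, against 1.71% of all genes) and Gadd45b fell (2.70%, against 2.39%). The median of the list was -0.01. Gadd45b lost its call without any single library other than Con replicates 1 and 3, STZ replicate 1 and STZ-A10 replicate 1, with adjusted p up to 0.138. 

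Among the remaining named genes, Saa3, an acute phase protein made by macrophages, had the largest log2 difference, 2.85 (SE 0.60, adjusted p = 0.0236). It was at 0.89, 1.79 and 0.38 RPKM in Con, 0.56, 2.21 and 2.42 in A10, 8.62, 7.97 and 3.01 in STZ, and 182, 17.8 and 13.5 in STZ-A10. STZ-A10 replicate 1 stood far above the rest, and without it the call was kept. The call was lost without A10 replicate 1, 2 or 3 or STZ replicate 2, with adjusted p up to 0.0534, and with a pseudocount of 5 (adjusted p = 0.0713). Gdf3, a growth factor of the TGF-beta family, had a median of 9.72 RPKM with STZ (4.68 to 33.6) and 2.65 without (2.28 to 5.03), a log2 difference of 1.58 (SE 0.28, adjusted p = 0.0105). Gm2663 (2.35, adjusted p = 0.0341), Pdia2 (1.72, adjusted p = 0.00495), a protein disulfide isomerase of the pancreas, and Tsga13 (1.22, adjusted p = 0.0484) were higher too. Gm2663 lies on chromosome 6 (40995830 to 40999479). The exocrine pancreas sums were higher in the same libraries, and their part in these genes was not tested. Gm2663 kept its call in 15 of 26 alternatives and Tsga13 in 11 of 27. Igfbp2, which binds insulin-like growth factors, fell by 1.37 on the log2 scale (SE 0.20, adjusted p = 0.00439), from a median of 13.7 RPKM to 5.30 without overlap. Cox6a2, a muscle form of a cytochrome oxidase subunit, fell by 1.30 (adjusted p = 0.00537), and the unplaced transcript LOC108167383 fell by 1.46 (adjusted p = 0.00331).

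Interferon-stimulated genes had 0 of 50 called, with a median of -0.20 that was 0.15 without AOS and -0.57 with AOS. Single libraries stood apart. The mean log2 level of the list was 5.81 in A10 replicate 3 and 4.31 to 4.99 in the other libraries. STZ replicate 3 was at 4.96, above STZ replicates 1 and 2 at 4.40 and 4.35. The difference between arms was not tested for the list, and 0 genes passed the interaction test. Of 51 cell cycle genes, 75 ribosomal protein genes, 58 oxidative phosphorylation genes, 24 BCL2 family genes and 6 hemoglobin genes, 0 were called. Of 29 heat shock genes, 27 were lower and 1 fell, Cryab (3.45%, against 2.39% of all genes), with a median of -0.27. Of 39 NRF2 and antioxidant genes 2 rose, Gsta4 and Gpx3 (5.13%, against 1.71% of all genes). Both lost their calls without Con replicate 3, A10 replicate 1 or 3 or STZ replicate 2, with adjusted p up to 0.0718 and 0.0835. Gsta4 also lost its call without STZ-A10 replicate 2, and Gpx3 without A10 replicate 2. Of 16 imprinted genes 2 rose (12.5%, against 1.71%), Phlda2 and Peg3. Peg3 lost its call without A10 replicate 1, 2 or 3, STZ replicate 2 or STZ-A10 replicate 2 or 3, with adjusted p up to 0.0846. Of 17 metallothionein and acute phase genes 4 rose (23.5%) and 1 fell (5.88%), with a median of -0.27. Inflammatory cytokines and their receptors had 1 higher (2.33%) and 2 lower (4.65%) of 43. Complement had 1 higher (3.33%) and 2 lower (6.67%) of 30. Stroma and white pulp chemokines had 1 higher (4.35%) and 1 lower (4.35%) of 23. Eosinophils and mast cells had 1 lower of 14 (7.14%), Cma1, which is also on the NK list. Over all genes the shares were 1.71% higher and 2.39% lower.

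Among genes of other organs, 34 of 44 exocrine pancreas genes rose (77.3%, against 1.71% of all genes), with a median of 3.26. The number called was 18 without Con replicate 2, 21 without Con replicate 3, 18, 20 and 16 without A10 replicates 1, 2 and 3, 22 without STZ replicate 2, and 17 and 13 without STZ-A10 replicates 2 and 3. It was 5 where 1 RPKM was required in all 12 libraries. Reg3b, a lectin made by stressed acinar cells, ran from 0.00 to 1.48 RPKM without STZ and from 12.4 to 160.4 with STZ, and the digestive protease Ctrb1 from 3.30 to 438 and from 344 to 2977. The trypsin and Reg genes are near-identical families, so reads may be split between them. Of 51 liver genes 18 fell (35.3%, against 2.39% of all genes), with a median of -1.28. The number called was 40 without Con replicate 1 and 10 without each of Con replicates 2 and 3, A10 replicates 1 and 2, STZ replicates 2 and 3 and STZ-A10 replicates 2 and 3. It was 1 where 1 RPKM was required in all 12 libraries. Mup1, a urinary protein of the liver, ran from 6.01 to 218 RPKM without STZ and from 0.00 to 5.57 with STZ, and it too belongs to a family of near copies. Of 11 testis genes, 6 adrenal and gonad genes and 2 kidney and genital tract genes, 0, 0 and 1 were called (0%, 0% and 50.0%). Of 13 gut genes 1 rose (7.69%) and 3 fell (23.1%). Of 6 striated muscle genes 1 fell (16.7%), and of 12 mesothelial genes 1 rose (8.33%). With all genes of these lists taken out and the rest rescaled, an alternative chosen after seeing the data, 411 genes were called, 410 of them among the 523. The glucocorticoid list then had 21 called members, the NK list 16 and the platelet list 8. Only the listed genes were taken out, so other transcripts of these organs stayed in. Their part in the remaining calls was not tested.

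Counted without a model, 218 genes (1.71%) had all 3 STZ libraries above all 3 others in both arms and 367 (2.87%) had them below in both. Of the 523 called genes, 369 were among these. In 38 genes (0.298%) the arms pointed in opposite directions without overlap. Of the glucocorticoid list 15 were above in both arms and 1 below, and of the NK list 12 were below and 0 above.

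In the 6 transplant libraries, which also had STZ, the same genes did not share one level. Pdk4 had a median of 2.59 RPKM there (1.45 to 5.41), beside 13 in the 6 libraries with STZ alone or with AOS and 2.77 without STZ. Errfi1 had a median of 8.32 (7.04 to 14.7), beside 27.2 and 8.44, and Per1 of 8.39 (7.49 to 11.4), beside 15.6 and 7.79. Ier3 had a median of 8.42 (5.75 to 12.2), beside 10.4 and 4.29, and Cox6a2 of 1.84 (0.61 to 2.49), beside 1.74 and 4.91. These levels are given side by side, with no test, since the transplant groups would share the same controls.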

How the data were processed

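Poly(A) RNA was isolated from frozen spleens and run on an Illumina HiSeq. The authors aligned reads to reference genes with SOAPaligner and deposited RPKM values in a table of 18 libraries. The submitters' processing notes also list Bowtie 0.12.2 and the mm10 genome, with no role given, and the annotation is not given in the sources used here. The table gives no read counts, so counting intervals could not be computed.

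Of 19326 lines, 6 with repeated names were left out, and 26 names were spreadsheet dates. The reference tables held 19077 (98.7%) of the 19320 symbols. Positions came from GENCODE M21 (GRCm38, the same build as mm10), and sequences from RefSeq on GRCm38.p6. Genes with at least 1 RPKM in at least 3 of the 12 libraries were tested on log2(RPKM + 1) with limma 3.58.1 in R 4.3.3 (trend, STZ term with AOS as covariate, two-sided, Benjamini-Hochberg, threshold 0.05). Fold changes of low genes are understated on this scale. Each arm and the interaction came from a 4-group fit, so the other groups share the estimate of the spread. Single values per library were tested by exact permutation within AOS strata (400 splits). P-values of the fits weigh a difference against the spread between these libraries. The spread of each gene was drawn toward a trend over all genes.

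The STZ fit was tested on simulated data (12773 genes, of which 200 had a log2 change of 1). It recovered 184 and called 12 unchanged genes. At a change of 2 it recovered 199. The simulated noise was independent between genes, with no shift shared across a library. The counts therefore do not give the error rate or power in the real libraries.

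Named genes are the 12 with the largest difference in each direction among called genes with a mean of at least 5 RPKM in the higher set and no overlap within either arm, leaving out the lists of other organs. List members named are up to 4 with the smallest p and up to 3 with the highest level. Any other gene was chosen after its values were seen, also where it is not marked so or where a count of few genes is spelled out. Sgk1 and Bcl6 are among these. The libraries, lists and rules were chosen with earlier results of these data known. The alternatives were other pseudocounts (0.1 and 5), filters, normalizations, fits, the study's threshold and leaving out each library. Results for some genes are not reported here.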

Additional observations from a re-analysis of the deposited data

Results flagged for a closer look

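Of the 12 named genes that were higher with STZ, 3 had all 6 transplant libraries above all 6 libraries without STZ. The transplant libraries, which also came from animals with STZ, are not part of the 6 against 6 comparison. The mean log2 difference between these libraries and the 6 without STZ was 1.34 for Gdf3, 0.87 for Ier3 and 0.68 for Acot1. Over the 12 genes, 11 had a higher mean in the transplant libraries than without STZ. Of the 12 named genes that were lower, 12 had a lower mean there and 2 had all 6 libraries under all 6. These values share the controls of the STZ comparison and are not independent of it. The named genes were also chosen for having no overlap with those controls within each arm. How many of all genes tested separate in this way was not counted, so these counts show no excess among the named genes.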

How the results depend on the processing

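The 24 named genes kept their direction in all 642 gene-by-alternative values. They were no longer past the threshold in 94 of them. The 523 calls for STZ became 854 with quantile normalization (416 higher and 438 lower), 899 with median centring and 2872 with array weights, whose estimate stopped before convergence, and 5 at the study's threshold (adjusted p of at most 0.001 and a log2 change of at least 1). The cause was not tested. Leaving out each library in turn gave 208 to 768. For the arm without AOS (37 calls) this range was 0 to 142, for the arm with AOS (20 calls) 0 to 30, and the interaction had 0 calls each time. Of the 523 called genes, 500 were among the 854, 512 among the 899 and 522 among the 2872. With array weights the arms gave 6925 and 2758 calls and the interaction 1083. Without a filter the arms gave 8 and 9, where 18763 genes were tested, and with all 18 libraries 21 and 7.

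Replicate numbers are shared between groups in the labels, but they did not pair the libraries. Deviations of same-numbered libraries from their group means correlated at -0.149 to 0.0629 between a group with STZ and its control, and 0 libraries correlated best with their own number in every other group. With the replicate block the calls were 402 for STZ, 24 without AOS, 13 with AOS and 0 for the interaction.

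The lists' medians kept their sign under all alternatives for the glucocorticoid, NK, platelet, neutrophil, red pulp, T cell, matrix, stress response and cholesterol lists. Depth is unknown, so the reads behind a low value cannot be stated.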
